A study of Mus musculus with 10 samples.

Results

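The cardiac transcription factors described here are 10 genes, Gata4, Gata6, Nkx2-5, Tbx5, Tbx20, Hand2, Mef2a, Mef2c, Mef2d and Srf, chosen by gene symbol from the 55401 genes in the deposited tables. Their left ventricular (LV) RNA was compared between 5 mice with neonatal ascending aorta constriction (nAAC) and 5 sham-operated mice, all wild type (WT), with 1 library of total RNA per mouse. In nAAC, the ascending aorta is narrowed surgically in the newborn, which places the growing LV under pressure overload. Pups of both groups stayed with their mothers and were breast fed, and the LV was taken at 4 weeks of age. Per the study's methods, WT mice came from litters of AHR+/- parents on a C57BL/6 background and the sexes were distributed at random, but the sex of each mouse is not given in the sources used here. Values are FPKM, a measure of RNA that takes transcript length and library size into account, so levels can be compared between genes per length. Differences between groups are log2 fold changes (log2 FC), nAAC minus sham, on the log2(FPKM + 1) scale.

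These factors bind DNA and together set the gene program of the heart muscle cell. GATA4 and GATA6 are zinc finger proteins, NKX2-5 is a homeodomain protein, TBX5 and TBX20 are T-box proteins, HAND2 is a basic helix-loop-helix protein, and the MEF2 proteins and SRF share the MADS domain. GATA4, the MEF2 proteins and SRF are also known as nuclear end points of the signals that drive cardiac hypertrophy, and SRF acts on a DNA element called the CArG box. RNA levels do not report the amount, location or activity of these proteins.

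All 10 genes were detected in every mouse and passed the filter of a mean FPKM of at least 1, along with 11867 genes in all. RNA of Srf, Tbx20 and Gata4 was higher in nAAC mice, by 2.02-, 1.96- and 1.66-fold on the ratio of mean FPKM. RNA of Tbx5 and Mef2a was lower, by 34.7% and 36.2%. Gata6, Nkx2-5, Hand2, Mef2c and Mef2d did not pass the test. At a Benjamini-Hochberg adjusted p below 0.05 in limma, 5 of the 10 genes were therefore called, beside 31.7% of all genes tested. Of the 10, 3 were called higher, beside 27.1% of all genes, and 2 lower, beside 4.6%. The median log2 FC of the 10 was 0.30, beside 0.22 over all genes. With so large a share of the transcriptome called, the count of higher genes lay near the background.

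**Figure D1:**
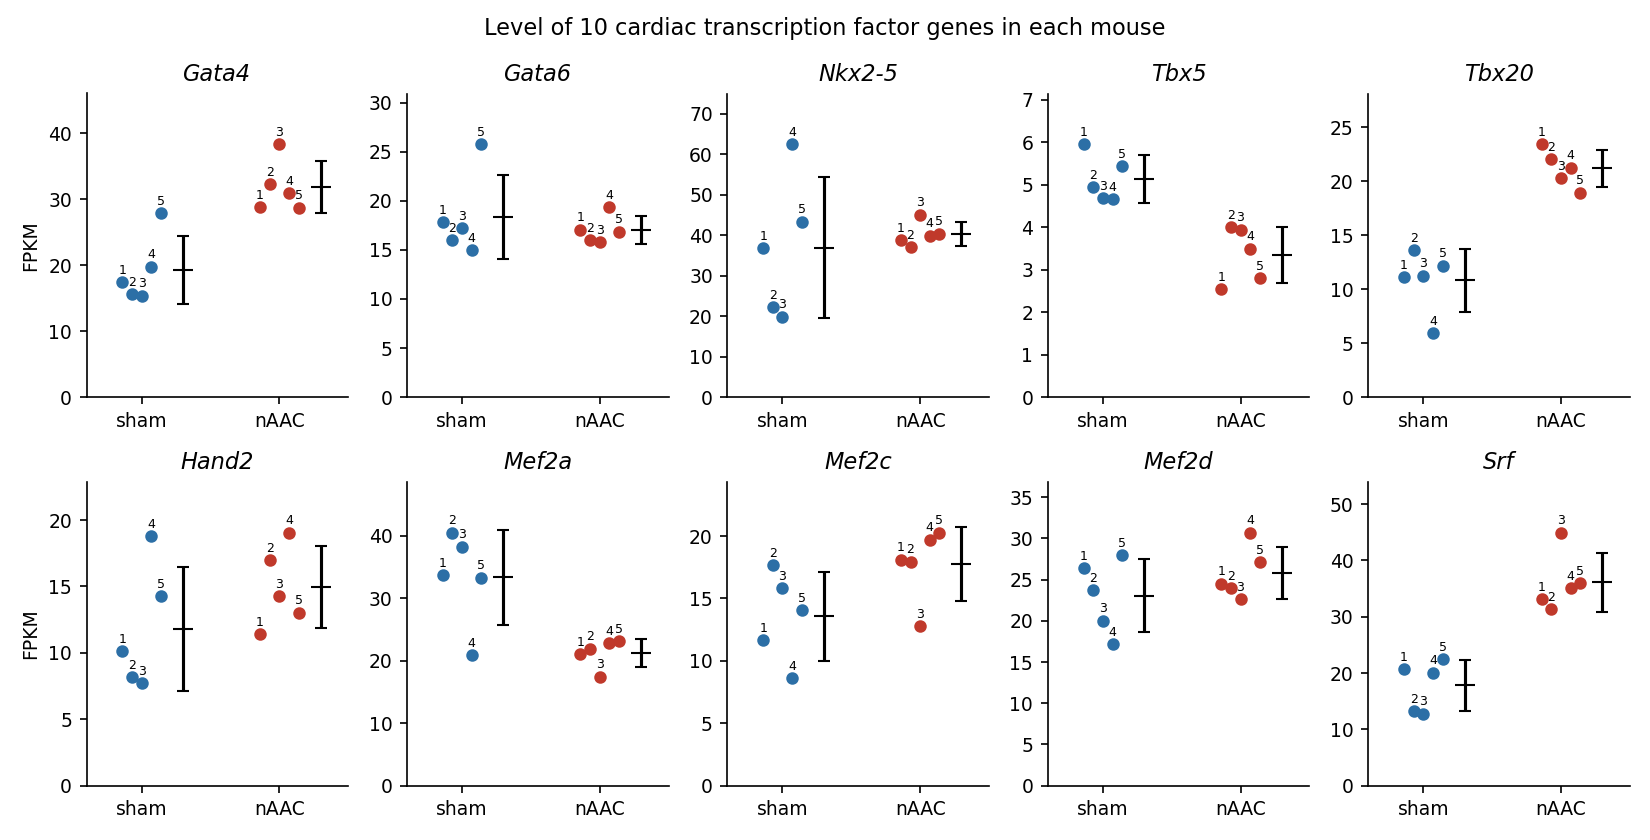
FPKM (y axis) of each of the 10 genes in every sham mouse (blue) and nAAC mouse (red), with the replicate number beside each point and the mean ± SD of 5 mice as a bar to its right. For Gata4, Tbx20 and Srf all nAAC mice lie above all sham mice, for Tbx5 all lie below, and for the other 6 genes the groups overlap.

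Srf (ENSMUSG00000015605) encodes serum response factor, which drives actin cytoskeletal, sarcomeric and immediate early genes. The gene occupies bases 46548329 to 46556175 of chromosome 17 (GRCm38, minus strand). It had an FPKM of 33.1, 31.4, 44.9, 35.1 and 36.0 in nAAC replicates 1 to 5, and 20.7, 13.2, 12.8, 20.1 and 22.4 in sham replicates 1 to 5. Every nAAC value exceeded every sham value. The log2 FC was 1.002 (SE 0.17, adjusted p = 8.00e-04 in limma). Srf was the only one of the 10 genes to pass an adjusted p below 0.05 together with an absolute log2 FC above 1, a pair of thresholds that 5.91% of all genes passed. It exceeded the fold threshold by little and fell to 0.73 after median-ratio scaling, in which each library is divided by the median of its gene-wise ratios to the mean of all libraries on a log scale. After removal of GC content and length trends it was 0.52. These trends were taken from the mean of all 10 libraries, so any trend that differed between the groups was removed as well.

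Sequence upstream of Srf is shown because it holds letters that match the element bound by the SRF protein. The CArG box was searched as CC, then 6 bases that are each A or T, then GG, on both strands of the 250 bases before each RefSeq transcription start (GRCm38.p6). Of 32851 promoters of that length, 1.47% held a match. The Srf promoter, at chr17:46556163-46556412 on the minus strand, held 2, at 82 to 73 and at 62 to 53 bases before the start, shown in capitals.

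Srf promoter: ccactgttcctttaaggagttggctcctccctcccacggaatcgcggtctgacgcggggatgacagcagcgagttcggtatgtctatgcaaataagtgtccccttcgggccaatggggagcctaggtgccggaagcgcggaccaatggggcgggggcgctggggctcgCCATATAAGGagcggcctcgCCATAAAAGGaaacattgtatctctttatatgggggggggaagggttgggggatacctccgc

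The RefSeq table held 9 promoters for 7 of the 10 genes, and none was matched for Gata4, Gata6 or Tbx5. Srf was the only one of the 7 with a CArG box in this window. A MEF2 box, present in 2.92% of all promoters, and the T-box half-site GGTGTGA, present in 3.33%, were found in none of the 9. GATA sites, counted as GATA preceded by A or T and followed by A or G, and present in 26.5% of promoters, occurred in Hand2 alone, which held 2. NKX2-5 sites, counted as AAGTG preceded by C or T, and present in 18.4%, occurred in Hand2, Mef2c and Srf. The E-box CANNTG, which shares its letters with some NKX2-5 sites and is the kind of element HAND2 binds, was present in 66.2% of promoters and occurred in Hand2, Mef2c and Nkx2-5. A match of letters in this window is a description of sequence and not evidence of a bound site.

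The GATA factors differed from each other. Gata4 (ENSMUSG00000021944, chromosome 14, bases 63198922 to 63271692, minus strand) encodes the GATA factor best known for driving natriuretic peptide genes and hypertrophic growth. Its FPKM was 28.8, 32.3, 38.4, 30.9 and 28.7 in nAAC replicates 1 to 5, and 17.5, 15.6, 15.4, 19.8 and 27.9 in sham replicates 1 to 5. The groups did not overlap, but sham replicate 5 came within 1 FPKM of the lowest nAAC mouse. In all, 4 of the 10 genes separated the groups in this way, as did 22.3% of all genes tested. These were Gata4, Tbx20 and Srf with nAAC above sham, as in 18.9% of all genes, and Tbx5 with nAAC below sham, as in 3.46%. The log2 FC of Gata4 was 0.72 (SE 0.16, adjusted p = 0.00447 in limma). Gata6 (ENSMUSG00000005836, chromosome 18 from 11052064 to 11085635, plus strand), which overlaps in function with Gata4 in cardiac development, had 17.1, 16.0, 15.8, 19.3 and 16.9 FPKM in nAAC mice and 17.8, 16.0, 17.2, 15.0 and 25.8 in sham mice. The groups overlapped fully, and the log2 FC was -0.08 (95% CI -0.39 to 0.22, adjusted p = 0.673 in limma). Gata6 was called lower when libraries were scaled by median ratios, with a log2 FC of -0.35 and an adjusted p of 0.0462 in limma. Scaling in this way lowered the median log2 FC of all genes from 0.22 to 0.00.

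Because such scaling moves all genes of a library together, the ratio of Gata4 to Gata6 was taken within each library, where it cancels. The 2 genes have longest transcripts of similar length (3400 and 3784 bases) and GC content (57.4% and 55.3%). There were 1.69, 2.02, 2.43, 1.60 and 1.71 units of Gata4 per unit of Gata6 in nAAC replicates 1 to 5, against 0.980, 0.977, 0.893, 1.32 and 1.08 in sham replicates 1 to 5. The LV of sham mice therefore held about equal FPKM of the 2 genes, and that of every nAAC mouse held more Gata4. The log2 ratio was higher in nAAC mice by 0.84 (SE 0.15, two-sided exact permutation p = 0.0079, adjusted over 5 ratios p = 0.0099, n = 5 per group), where 0.0079 is the smallest p that 5 against 5 mice can give.

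The T-box genes moved in opposite directions. Tbx20 (ENSMUSG00000031965, chromosome 9 from 24718138 to 24774303, minus strand) encodes a T-box factor needed to maintain the adult cardiomyocyte. Mice of the nAAC group had 23.4, 22.0, 20.3, 21.3 and 18.9 FPKM in replicates 1 to 5, and 11.1, 13.6, 11.2, 5.90 and 12.2 FPKM was measured in sham replicates 1 to 5. All nAAC mice lay above all sham mice, and sham replicate 4 was lowest. Tbx20 had a log2 FC of 0.95 (SE 0.18, adjusted p = 0.00145 in limma), which was 0.77 without sham replicate 4, the lowest value when any 1 mouse was left out. Tbx5 (ENSMUSG00000018263, chromosome 5 from 119832668 to 119885219, plus strand) encodes a T-box activator that binds DNA with GATA4 and NKX2-5. It was measured at 2.54, 4.00, 3.94, 3.49 and 2.80 FPKM in nAAC mice, and 5.96, 4.94, 4.69, 4.65 and 5.44 in sham mice. All nAAC mice lay below all sham mice. For Tbx5 the log2 FC was -0.50 (SE 0.12, adjusted p = 0.00813 in limma) at a level where the added 1 in log2(FPKM + 1) shrinks differences.

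Per unit of Tbx20, the LV held 0.109, 0.182, 0.194, 0.164 and 0.148 units of Tbx5 in nAAC mice, and 0.536, 0.364, 0.417, 0.789 and 0.447 in sham mice. The highest nAAC ratio was below the lowest sham ratio. The difference in log2 ratio was -1.65 (SE 0.24, two-sided exact permutation p = 0.0079, adjusted over 5 ratios p = 0.0099, n = 5 per group). These transcripts differ in length (3942 bases for Tbx5 and 9091 for Tbx20) and GC content (51.3% and 42.3%), so a trend of a library on either property does not cancel in this ratio. Removal of such trends from each library was tried for the ratios only once the data had been seen. It used log2(FPKM + 1), where the difference was -1.59 and the groups still did not overlap. Because of the added 1, this value is not on the same scale as -1.65. On that scale the log2 FC before removal were -0.50 for Tbx5 and 0.95 for Tbx20.

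The MEF2 genes did not move together. Mef2a (ENSMUSG00000030557, chromosome 7 from 67231163 to 67372858, minus strand) encodes the MEF2 protein of the postnatal heart that supports mitochondrial and sarcomeric genes. Its FPKM was 21.04, 21.9, 17.4, 22.8 and 23.1 in nAAC replicates 1 to 5, and 33.7, 40.5, 38.2, 20.9 and 33.2 in sham replicates 1 to 5. Sham replicate 4 lay among the nAAC mice, and the other 4 sham mice lay above all of them. Mef2a had a log2 FC of -0.60 (SE 0.17, adjusted p = 0.0160 in limma), and an exact permutation test of the 10 log2(FPKM + 1) values gave p = 0.0397. The adjusted p from limma was 0.0561 when TPM replaced FPKM, with a log2 FC of -0.44. Lysmd4, on the opposite strand, overlaps Mef2a and had a mean of 3.86 FPKM in nAAC and 4.89 in sham mice, and whether strand was used in counting is not given in the sources used here.

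Mef2c (ENSMUSG00000005583, chromosome 13 from 83504034 to 83667080, plus strand), which is required for heart development, went the other way in its means. Its FPKM was 18.1, 17.9, 12.8, 19.7 and 20.3 in nAAC mice, and 11.6, 17.7, 15.8, 8.60 and 14.1 in sham mice. Of the nAAC values, 4 exceeded all sham values, and nAAC replicate 3 lay below 3 sham mice. For Mef2c the log2 FC was 0.39 (95% CI -0.01 to 0.78, adjusted p = 0.123 in limma). Mef2d (ENSMUSG00000001419, chromosome 3 from 88142372 to 88172086, plus strand), a member linked to the response of the adult heart to pressure overload, had 24.5, 24.00, 22.6, 30.7 and 27.2 FPKM in nAAC mice and 26.4, 23.7, 20.01, 17.2 and 28.0 in sham mice. The groups overlapped, with a log2 FC of 0.17 (95% CI -0.15 to 0.49, adjusted p = 0.399 in limma).

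The ratio of Mef2a to Mef2c separated the groups, which neither gene did alone. The LV held 1.16, 1.22, 1.37, 1.15 and 1.14 units of Mef2a per unit of Mef2c in nAAC replicates 1 to 5, and 2.89, 2.29, 2.41, 2.43 and 2.37 in sham replicates 1 to 5. Sham replicate 4, which overlapped with nAAC mice in Mef2a itself, lay with the other sham mice in this ratio. The difference in log2 ratio was -1.04 (SE 0.08, two-sided exact permutation p = 0.0079, adjusted over 5 ratios p = 0.0099, n = 5 per group). The 2 genes have longest transcripts of similar length (5538 and 6277 bases) and GC content (42.0% and 40.8%). Computed from coverage, which was tried only once the data had been seen, the difference was -0.81, and the groups still did not overlap.

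Mef2a also fell relative to Mef2d, with ratios of 0.741 to 0.912 in nAAC mice and 1.19 to 1.91 in sham mice. That difference in log2 ratio was -0.80 (SE 0.15, two-sided exact permutation p = 0.0079, adjusted over 5 ratios p = 0.0099, n = 5 per group). The genes differ in GC content (42.0% and 55.0%). After removal of GC content and length trends, which used log2(FPKM + 1) in place of FPKM, the difference was -0.45. The ratio of Mef2d to Mef2c lay between 1.34 and 1.77 in the nAAC group, between 1.26 and 2.27 in the sham group, and had a difference in log2 ratio of -0.24 (SE 0.19, exact permutation p = 0.230, adjusted over 5 ratios p = 0.230, n = 5 per group). After removal of the trends, again on log2(FPKM + 1), this difference was -0.55 (adjusted exact permutation p = 0.0079), so the call depended on that setting. As shares of the FPKM summed over the 3 genes, Mef2a made up 32.8% ± 1.14 with nAAC and 47.4% ± 3.14 with sham operation (SD, n = 5 each). Mef2c made up 27.3% ± 1.87 and 19.3% ± 2.25, and Mef2d 39.9% ± 2.34 and 33.4% ± 4.95 (SD, n = 5 each). The sum itself was 64.8 ± 7.88 FPKM in nAAC mice and 69.9 ± 13.5 in sham mice (SD, n = 5 each).

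**Figure D2:**
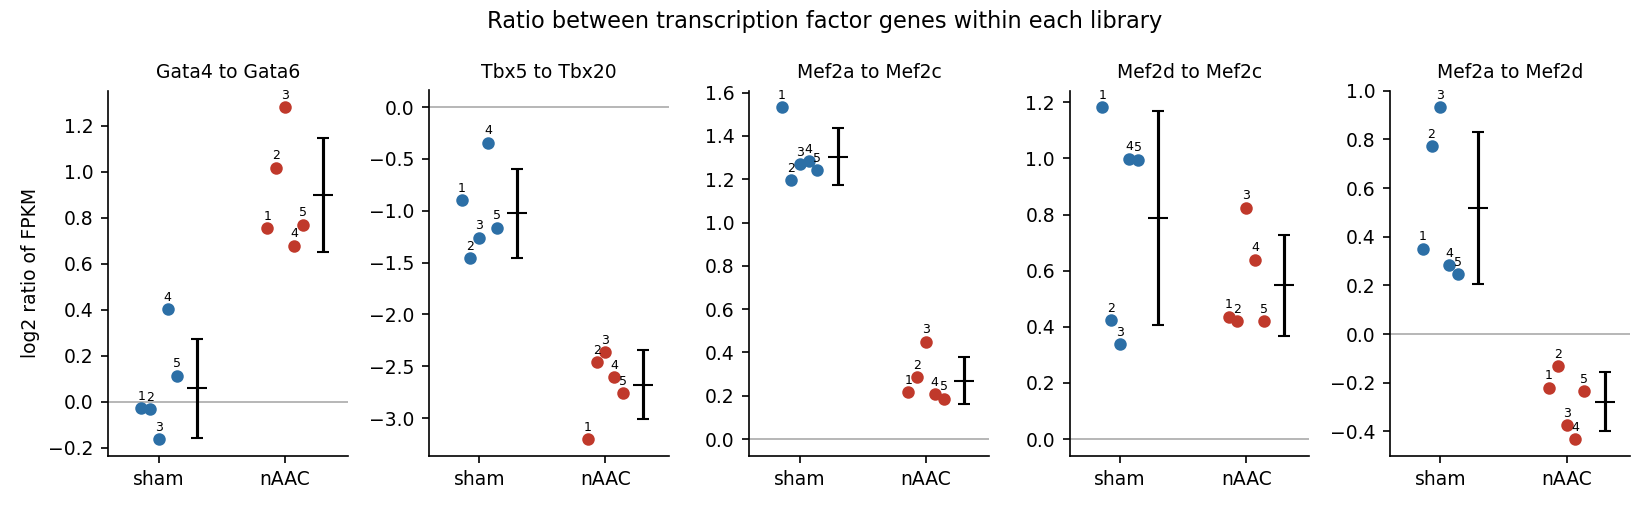
Log2 ratio of the FPKM of gene pairs within each library (y axis; the y range differs between panels and the grey line marks equal FPKM) for sham mice (blue) and nAAC mice (red), with replicate numbers and the mean ± SD of 5 mice. Groups do not overlap for Gata4 to Gata6, Tbx5 to Tbx20, Mef2a to Mef2c and Mef2a to Mef2d, and they overlap for Mef2d to Mef2c.

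Nkx2-5 (ENSMUSG00000015579, chromosome 17 from 26838664 to 26845009, minus strand), the homeodomain factor at the top of the cardiac program, was the most abundant of the 10 in both groups, at 40.3 ± 2.98 FPKM in nAAC and 37.0 ± 17.3 in sham mice (SD, n = 5 each). Its values in nAAC mice lay close together, at 38.9, 37.1, 45.1, 39.9 and 40.4. In sham mice they ran wide, at 36.8, 22.3, 19.9, 62.5 and 43.4, with replicate 4 highest and replicates 2 and 3 lowest. The log2 FC of Nkx2-5 was 0.24 (95% CI -0.31 to 0.79, adjusted p = 0.491 in limma), an interval that allows changes in either direction. The coefficient of variation was 7.40% in nAAC and 46.9% in sham mice. Nkx2-5 has the shortest longest transcript (1525 bases) and the highest GC content (67.1%) of the 10, and sham libraries differed along both properties. Across genes, the deviation of a library from the mean of its group correlated with GC content at Spearman rho -0.59, -0.57 and 0.56 in sham replicates 2, 3 and 5. With transcript length it correlated at -0.66 in sham replicate 4 and 0.47 in sham replicate 2. These are descriptions over genes, which are not independent replicates. After removal of GC content and length trends, the SD of log2 values of Nkx2-5 in sham mice fell from 0.66 to 0.22. The sham SD also fell in each of the other genes except Tbx5 (0.128 to 0.134). Among them were Tbx20 (0.42 to 0.18) and Mef2c (0.38 to 0.19), which have long transcripts of low GC content. Why the sham values of Nkx2-5 ran wide was not tested.

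Hand2 (ENSMUSG00000038193, chromosome 8 from 57320983 to 57324633, plus strand), a factor of the right ventricle and outflow tract in development, was measured at 11.4, 17.0, 14.3, 19.1 and 13.0 FPKM in nAAC mice and 10.1, 8.19, 7.73, 18.8 and 14.3 in sham mice. The groups overlapped because of sham replicates 4 and 5. The log2 FC was 0.37 (SE 0.22, adjusted p = 0.220 in limma), and without sham replicate 4 it was 0.54 with an adjusted p of 0.0360 in limma. Hand2os1, an antisense RNA gene that overlaps Hand2, had a mean of 27.3 FPKM in nAAC and 40.5 in sham mice, and without known strand use its reads and those of Hand2 cannot be told apart. Gata6os, on the opposite strand to Gata6, had 5.82 and 6.76 FPKM, and the same limit applies.

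Ordered by mean FPKM in sham mice, the genes ran Nkx2-5, Mef2a, Mef2d, Gata4, Gata6, Srf, Mef2c, Hand2, Tbx20 and Tbx5, and the ranges of all neighbours in this order overlapped. In nAAC mice the order was Nkx2-5, Srf, Gata4, Mef2d, Mef2a, Tbx20, Mef2c, Gata6, Hand2 and Tbx5. There, only Hand2 and Tbx5 were neighbours with separate ranges. Srf stood 6 from the top in sham mice and 2 from the top in nAAC mice, and Mef2a 2 and 5 from the top. Tbx5 was the lowest in both groups, at 5.14 ± 0.556 FPKM in sham and 3.36 ± 0.660 in nAAC mice (SD, n = 5 each).

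For each of the 5 called genes, the tested gene with the most similar profile was taken as the one with the smallest root mean square difference in centred log2(FPKM + 1) over the 10 mice. It was P2rx4, a purinergic ion channel gene, for Gata4 (0.0900), and Cs, the citrate synthase gene, for Tbx5 (0.120). It was Dst, a cytoskeletal linker gene, for Tbx20 (0.112), and Nebl, which encodes a Z-disc protein, for Mef2a (0.111). For Srf it was Smad6, an inhibitor of BMP signaling (0.0966). These neighbours describe likeness over 10 mice and nothing about control.

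The calls were set beside measures of the libraries that moved with the groups. Xist, the RNA that coats an inactive X chromosome, had 17.2, 0.0232, 14.8, 16.6 and 17.9 FPKM in nAAC replicates 1 to 5, and 0, 0.0168, 0.00412, 3.70 and 10.6 in sham replicates 1 to 5. High Xist was thus more frequent among nAAC mice. With Xist as a covariate, Srf and Tbx20 were still called higher, at log2 FC of 0.79 and 1.05, where 13.4% of all genes were called higher. Gata4, at 0.55 (adjusted p = 0.0591 in limma), Tbx5, at -0.42 (adjusted p = 0.0776), and Mef2a, at -0.47 (adjusted p = 0.134), kept their direction and missed the threshold. In that limma fit 0 of the 10 were called lower, beside 3.29% of all genes, and Tbx5 and Mef2a were the 2 lower at an unadjusted p below 0.05. Among the mice with Xist below 1 FPKM, nAAC replicate 2 had more Gata4 (32.3 FPKM) than sham replicates 1 to 3 (15.4 to 17.5) and less Mef2a (21.9 against 33.7 to 40.5). Its ratio of Mef2a to Mef2c was 1.22, against 2.29 to 2.89 in the same sham mice. Among the others, Gata4 ran from 28.7 to 38.4 FPKM in nAAC and was 19.8 and 27.9 in sham mice. Mef2a overlapped there, at 17.4 to 23.1 FPKM in nAAC and at 20.9 and 33.2 in sham mice, and the ratio of Mef2a to Mef2c ran from 1.14 to 1.37 and was 2.43 and 2.37. The part of sex in these results was not tested.

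Cell content was described with marker lists. In bulk tissue, fewer cells of a type and less RNA per cell cannot be told apart. Of 12 cardiomyocyte markers, 3 were called higher and 2 lower, and their summed level ran from 17662 to 27114 FPKM in nAAC and from 18953 to 34028 in sham mice. Of 12 fibroblast markers, 8 were called higher in limma and 0 lower, with sums of 1183 to 1868 and of 749 to 973 FPKM. Higher calls numbered 4 of 11 endothelial, 5 of 9 mural, 3 of 11 macrophage and leukocyte and 2 of 7 epicardial markers, with 0 lower in limma. Of 5 erythroid markers, 0 were called in limma. At an unadjusted p below 0.05, 1 mural marker was lower (Abcc9) and 0 of the fibroblast, endothelial, leukocyte, epicardial or erythroid markers, and 0 erythroid markers were higher. Atrial markers, which check the LV label, summed to between 8.38 and 238 FPKM in nAAC and between 17.5 and 57.5 in sham mice, and Bmp10 and Sln were listed at 0 in at least 1 library. Of 5 atrial markers tested, 1 was called lower, Stard10, with a log2 FC of -1.18 (adjusted p = 0.0161 in limma), and 0 higher, with 1 higher at an unadjusted p below 0.05. The median log2 FC of the 5 was 0.88, beside 0.22 over all genes. Most of this list therefore lay in the direction opposite to Stard10, which was named only for its call. Over all genes, 27.1% were called higher and 4.6% lower, and these shares are the background of each marker list. When each library was expressed relative to its cardiomyocyte markers, the same 5 genes were called, 3 higher (beside 15.4% of all genes) and 2 lower (beside 5.65%). The part of other cell types in the results was not tested.

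**Figure D3:**
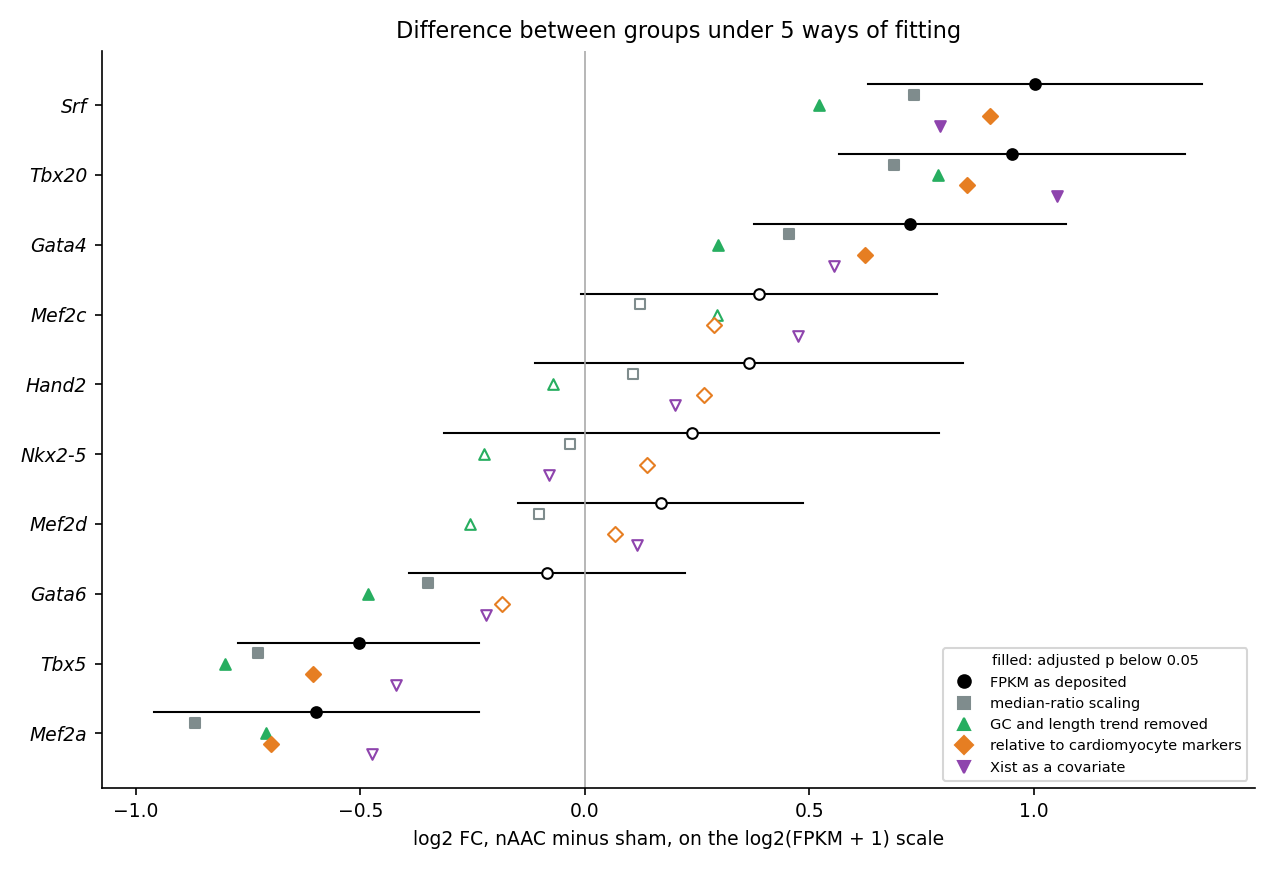
Log2 FC (x axis, nAAC minus sham, log2(FPKM + 1) scale) of each of the 10 genes from limma under 5 ways of fitting, where filled symbols have an adjusted p below 0.05 and black lines are 95% CI of the fit to FPKM as deposited. Srf and Tbx20 are called higher in all 5, whereas Gata4, Tbx5 and Mef2a lose the call with Xist as a covariate and Gata6 is called lower after median-ratio scaling and after removal of GC content and length trends.

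After median-ratio scaling, 3 of the 10 genes were called higher, beside 13.2% of all genes, and 3 lower, beside 12.1%, Gata6 being the added one. After removal of GC content and length trends the counts were again 3 higher, beside 14.2%, and 3 lower, beside 16.1%. Gata6 had a log2 FC of -0.48 in that fit (adjusted p = 0.00202 in limma), and Gata4 one of 0.30 (adjusted p = 0.0419).

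Genes around these factors were described with lists of other cardiac transcription factors, cofactors and known targets. Each count stands beside a background of 27.1% of all genes called higher and 4.6% called lower. Of 24 other cardiac transcription factors, 16 passed the filter, and 3 of these were called higher, 2 lower and 11 neither, with a median log2 FC of 0.03. Mef2b, the remaining MEF2 gene, was below the filter and added no more than 0.0586 FPKM on average to the MEF2 genes of either group. Hopx, a homeodomain-only protein that restrains SRF, had 49.2 ± 9.67 FPKM in nAAC and 101 ± 35.8 in sham mice (SD, n = 5 each), with no overlap and a log2 FC of -0.99 (adjusted p = 0.00424 in limma). The Iroquois genes had mixed signs. Irx4, a ventricular identity factor, was higher at 13.8 ± 4.07 against 8.17 ± 2.41 FPKM (SD, n = 5 each; log2 FC 0.69, adjusted p = 0.0282 in limma). Irx5, which shapes the repolarization gradient, was lower at a log2 FC of -0.47 (adjusted p = 0.0494), and Irx3, a conduction system factor, had -0.52 (adjusted p = 0.161). Foxc2, a forkhead factor of vessels, was higher at a log2 FC of 0.73 (adjusted p = 0.00139 in limma), and Tbx2, a T-box repressor, had 0.39 (adjusted p = 0.0917). Foxc2 had 1.53 ± 0.276 FPKM in nAAC and 0.540 ± 0.271 in sham mice (SD, n = 5 each). It passed the filter only through its nAAC level, so its place among the tested genes depended on the difference itself. After removal of GC content and length trends Foxc2 had 0.26 and was no longer called (adjusted p = 0.125), nor was Irx4, at 0.23 (adjusted p = 0.312). The calls of Irx4 and Irx5 depended on single mice, with adjusted p of up to 0.0729 and 0.106 when 1 mouse was left out. Irx3 was called lower in 5 of 21 alternatives (adjusted p down to 0.0012 in limma), and Tbx2 higher in 2 (adjusted p down to 0.0118).

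Of 25 cofactors and regulators, 6 were called higher, 2 lower and 17 neither, with a median log2 FC of 0.11. Among the partners of SRF, Mrtfa, an actin-regulated coactivator, rose to 2.38 ± 0.308 FPKM from 1.26 ± 0.236 (SD, n = 5 each) with no overlap (log2 FC 0.59, adjusted p = 0.00148 in limma). After removal of GC content and length trends, however, Mrtfa had 0.11 and was not called (adjusted p = 0.448). Elk3, a ternary complex factor, rose by a log2 FC of 0.63 (adjusted p = 0.00374), and missed the threshold with Xist as a covariate (adjusted p = 0.0513). Myocd, which encodes myocardin, the muscle coactivator of SRF, had 7.39 ± 0.260 FPKM in nAAC and 7.90 ± 2.72 in sham mice (SD, n = 5 each), with a log2 FC of -0.01 (adjusted p = 0.978 in limma). It was picked out after its values were seen. Nfatc4, a calcineurin-dependent partner of GATA4, rose by 0.76 (adjusted p = 0.00347 in limma). Cited2, a coactivator that binds CBP and p300, and Prkd1, a kinase that moves class II histone deacetylases off MEF2, fell by 0.70 and 0.36 on the log2 scale (adjusted p = 0.0461 and 0.0418). Both calls depended on single mice, since leaving out 1 mouse removed them in 7 and 8 of 10 cases (adjusted p of up to 0.108 and 0.0989). Mapk14, the p38 kinase that phosphorylates MEF2 proteins, had -0.19 (adjusted p = 0.196), and was called lower in 4 of 21 alternatives (adjusted p down to 1.19e-04 in limma).

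Targets of the GATA, NKX2-5 and T-box proteins did not share a direction. Of 20 tested, 6 were called higher, 4 lower and 10 neither, with a median log2 FC of 0.04. The natriuretic peptide genes Nppa and Nppb had log2 FC of 6.07 and 5.12 (adjusted p = 3.58e-09 and 1.31e-07 in limma), and Hspb7, a small heat shock protein gene, 1.44 (adjusted p = 4.86e-04). The calcium handling genes Atp2a2 and Pln fell by 0.87 and 0.86 on the log2 scale (adjusted p = 0.00250 and 4.30e-04 in limma), and Tnni3, the adult troponin I gene, by 0.82 (adjusted p = 0.0147). Tnni3 lost its call with no filter on low values (adjusted p = 0.0640). Of 21 targets of MEF2 proteins, 5 were called higher, 2 lower and 14 neither, with a median log2 FC of 0.18. Xirp2, an actin-binding protein gene, rose by 3.50, Rcan1, the calcineurin inhibitor gene, by 1.63 and Nr4a1, a nuclear receptor gene, by 1.06 (adjusted p = 1.31e-07, 3.02e-05 and 2.21e-04 in limma). Hrc, a sarcoplasmic reticulum calcium-binding protein gene, and Adra1a, an adrenergic receptor gene, fell by 1.03 and 0.89 (adjusted p = 0.00225 and 0.0119), the latter not called with Xist as a covariate (adjusted p = 0.0939). Adra1a had a mean of 0.862 FPKM in nAAC and 2.49 in sham mice, and passed the filter only through its sham level. Ckm, the muscle creatine kinase gene, had -0.45 (adjusted p = 0.137), and was called lower in 5 of 21 alternatives (adjusted p down to 0.0012 in limma).

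Most of the tested targets of SRF were higher in nAAC mice. Of 22 tested, 20 were called higher, 0 lower and 2 neither in limma, with a median log2 FC of 1.07, beside 27.1% called higher and a median of 0.22 over all genes. Those passing the log2 FC threshold of 1 as well numbered 13, beside 5.91% of all genes. Egr3 (1.92 FPKM in nAAC and 0.121 in sham mice) and Cnn1 (3.21 and 0.881) are counted among these. Their sham means were below 1 FPKM, so they passed the filter only through their nAAC level, and their calls depend in part on it. The listed targets Fos, Fosb and Egr2 fell below the filter and were not tested. Tpm1 was the 1 gene lower at an unadjusted p below 0.05. At an adjusted p below 0.05, the number called higher ran from 15 to 20 over the alternatives tried. The number called in either direction ran from 16 to 21. Acta1, skeletal muscle alpha-actin, had 3294 ± 477 FPKM in nAAC and 37.6 ± 16.7 in sham mice (SD, n = 5 each; log2 FC 6.52, adjusted p = 9.74e-09 in limma). Fhl1, a LIM protein of the sarcomere, ran from 117 to 298 FPKM in nAAC and from 35.5 to 49.0 in sham mice (log2 FC 2.07, adjusted p = 1.03e-05). Ccn1, a matricellular growth factor gene, rose by 1.72 (adjusted p = 1.45e-05), and Ier2, an immediate early gene, by 0.55 (adjusted p = 0.0195). Ier2 lost its call in 7 of 21 alternatives, with a log2 FC down to 0.10 (adjusted p = 0.508) after trend removal. The 2 genes not called were Tpm1, a tropomyosin of the thin filament, at -0.43 (adjusted p = 0.108), and Fhl2, a LIM protein that can restrain SRF, at -0.14 (adjusted p = 0.631). Tpm1 was called lower in 6 of 21 alternatives (adjusted p down to 0.00342 in limma), and Fhl2 in 1 (adjusted p = 0.0492). The list includes genes that fibroblasts and vessel muscle cells are known to express, Tagln, Acta2 and Cnn1 among them, as well as cardiomyocyte genes.

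Of the 22 SRF targets, 17 had a RefSeq promoter, and 9 of these held a CArG box within 250 bases before the start, beside 1.47% of all promoters. They were Acta1, Actc1, Actg1, Cnn2, Fhl1, Fhl2, Filip1l, Myl9 and Vcl. The boxes of the 2 with the largest change and of 1 that was not called are shown, with the box in capitals and 10 bases on each side, from RefSeq GRCm38.p6. Both the called genes and Fhl2, which held 2 boxes before separate starts, carried the element. A gene was counted if any of its promoters matched, whereas 1.47% is a share of single promoters. The list was made of known SRF targets, which can be known through such boxes. The share with a box is therefore a description of the list and no test of it.

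Acta1, chr8:123894829-123894858, minus strand: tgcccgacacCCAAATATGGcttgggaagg

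Fhl1, chrX:56779571-56779600, plus strand: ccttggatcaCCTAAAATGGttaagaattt

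Fhl2, chr1:43196838-43196867, minus strand: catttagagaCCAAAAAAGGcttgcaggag

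Fhl2, chr1:43163973-43164002, minus strand: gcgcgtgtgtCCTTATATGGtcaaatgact

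**Figure D4:**
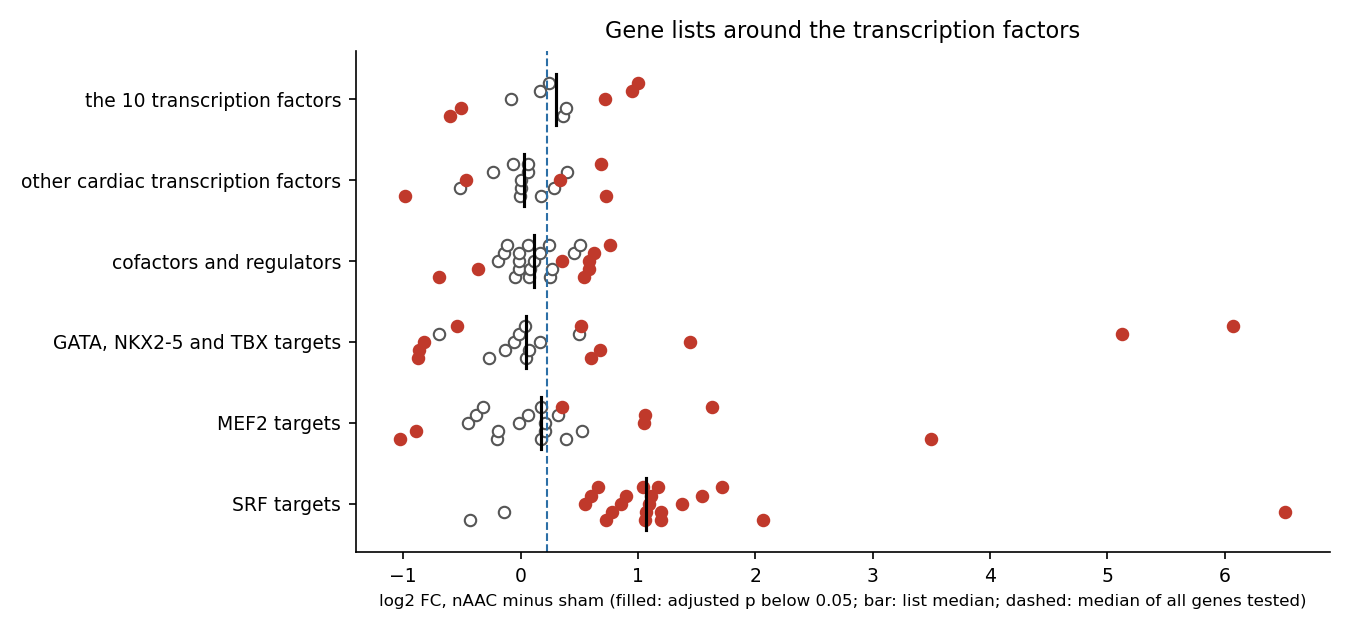
Log2 FC (x axis, nAAC minus sham, log2(FPKM + 1) scale) of every tested gene in 6 lists, 1 point per gene, where filled points have an adjusted p below 0.05 in limma, the short bar is the list median and the dashed line is the median of all genes tested, 0.22. In the SRF target list 20 of 22 genes are called higher, with a median of 1.07, whereas the median of the 10 transcription factors is 0.30 and those of the other 4 lists lie between 0.03 and 0.18.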

How the data were processed

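A gene table was deposited for every mouse. In it, deposited coverage is the mean read depth per base. The deposited FPKM is normalized by the authors for transcript length and library size. The deposited TPM is rescaled to a fixed sum per library. Coverage and FPKM were not in a constant ratio over the genes of a library. The layout is that of StringTie. The submitters' processing notes name the build mm10, and the aligner, quantification tool, strand use and filters are not given in the sources used here. Libraries were made from Trizol-extracted total RNA with the NEBNext Ultra kit. Lines sharing a gene ID were summed, giving 55401 genes, and 99.4% of those shared with GENCODE M21 had the same coordinates. Read counts cannot be recovered, so depth is an estimate. The most frequent ratio of coverage to FPKM, shared by 15.0% to 16.5% of genes, gave 4.86 to 6.82 gigabases in nAAC and 5.06 to 5.25 in sham libraries.

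Groups came from the sample titles. The 11867 genes whose FPKM averaged 1 or more were converted to log2(FPKM + 1) and fitted with limma 3.58.1 (R 4.3.3), using its trended empirical Bayes step and no covariate. P values were adjusted by Benjamini-Hochberg over all of these genes. Ratios within libraries were compared by two-sided exact permutation of 5 against 5 values, adjusted over the 5 ratios. Whether replicates were separate litters is not stated, so p values measure the spread between these mice. Named genes were the 10 factors, the 3 largest and 3 smallest log2 FC among tested genes of each list, and the nearest profile of each called factor. Some genes were named outside this rule. Of these, Stard10, Abcc9, Myocd, Egr3 and Cnn1 were picked after their values were seen. The 10 factors, the lists and the ratios were chosen with earlier results of these data known. In simulated data with the real means and spread of the 11867 genes, 178 of 200 genes changed by a log2 FC of 1 were called, with 11 false calls, and 0 of 200 at 0.5. The changed genes were a far smaller share than the 31.7% called in the data, and all had a higher mean level than Tbx5. These counts therefore do not give the sensitivity of the fit to the real data. Replicate numbers were checked as pairs, gave no sign of pairing, and were not used in the main fit. Alternatives were other scalings, TPM, coverage with median-ratio scaling, a pseudocount of 0.1, no filter, Xist as a covariate, trend removal by loess on GC content and length (GENCODE M21, known for 99.9% of tested genes), a replicate block and leaving out each mouse. The loess trend was fitted to the deviation of each library from the mean of all 10. It therefore also removed any part of the group difference that followed GC content or length. Motifs were searched in RefSeq GRCm38.p6 promoters. Figures used Python 3.11.15, pandas 2.3.3 and matplotlib 3.10.9.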

Additional observations from a re-analysis of the deposited data

Results flagged for a closer look

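For the 10 genes and 5 ratios, 30 groups of 5 mice were screened for a mouse whose gap to its nearest neighbour, divided by the range of the group, exceeded Dixon's critical value of 0.71. Gaps were taken on the log2(FPKM + 1) scale for genes and on the log2 scale for ratios. Chance would mark about 1.5 of 30, and 3 were marked. Tbx20 in sham mice had its lowest value in replicate 4, at 5.90 FPKM against 11.1 to 13.6 in the others, a gap of 0.75 of the range on the log2 scale and 0.68 in FPKM. Mef2c in nAAC mice had its lowest value in replicate 3, at 12.8 FPKM against 17.9 to 20.3, a gap of 0.73 on the log2 scale and 0.69 in FPKM. On the linear scale neither gap exceeded 0.71. The ratio of Mef2a to Mef2c in sham mice had its highest value in replicate 1, at 2.89 against 2.29 to 2.43, a gap of 0.74 on the log2 scale and 0.77 on the linear scale. Each of these values lay farther from the other group than its own group did, or left the groups overlapping, as given above.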

How the results depend on the processing

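The number of the 10 genes called was 5 and ran from 5 to 6 when 1 mouse was left out and from 2 to 6 over all alternatives, the 2 being with Xist as a covariate. Srf (log2 FC 0.52 to 1.18) and Tbx20 (0.69 to 1.14) were called in all 21 alternatives, Gata4 (0.30 to 0.90) and Tbx5 (-0.87 to -0.40) in all but Xist as a covariate, and Mef2a (-0.89 to -0.44) in all but that and TPM. Leaving out 1 mouse removed none of these calls. The median of the 10 genes was 0.036 after median-ratio scaling, 0.050 after upper-quartile scaling, 0.47 with TPM, -0.15 after trend removal and -0.063 with coverage combined with median-ratio scaling (chosen after the data were seen), and ran from 0.18 to 0.37 when 1 mouse was left out. The median of all genes moved from 0.22 to 0.00, 0.01, 0.39, -0.02 and 0.00 under the same 5 settings. Genes without a call changed sign. Gata6 was 0.080 with TPM and 0.039 without sham replicate 5 (-0.15 to 0.039 over mice left out). Nkx2-5 was -0.034 and -0.020 after median-ratio and upper-quartile scaling, -0.079 with Xist, -0.22 after trend removal and -0.037 with scaled coverage. Mef2d was -0.10, -0.088, -0.26 and -0.19 after both scalings, trend removal and with scaled coverage. Hand2 and Tbx2 were -0.070 and -0.11 after trend removal, and Mef2c was -0.088 with scaled coverage but was called with TPM, at 0.56 (adjusted p = 0.0308 in limma). Fhl2 was 0.034 with TPM and 0.073 without sham replicate 4 (-0.21 to 0.073 over mice left out). Why these values moved was not tested. Called genes in the 5 lists of factors, cofactors and targets numbered 48, and 38 to 57 over alternatives, with 2 to 7 of the other transcription factors, 4 to 10 of the cofactors and 5 to 11 of the MEF2 targets.

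Replicate numbers gave no sign of pairing the mice. Correlations of deviations ran from -0.32 to 0.19, and 0 of 5 nAAC libraries correlated best with their own number. With 5 numbers and library trends in these deviations, such a check cannot exclude pairing. With the replicate number as a block, 5 of the 10 genes were called. The ratios of Gata4 to Gata6 (0.84), Tbx5 to Tbx20 (-1.65), Mef2a to Mef2c (-1.04) and Mef2a to Mef2d (-0.80) then had an adjusted exact permutation p of 0.0781, because 5 pairs cannot give a raw p below 0.0625. After trend removal, which used log2(FPKM + 1), the ratio of Mef2d to Mef2c differed by -0.55 (adjusted exact permutation p = 0.0079). With no counts, the precision of single values is unknown. In simulation a log2 FC of 0.5 was not recovered, but only 200 of 11867 genes were changed there, beside 31.7% called in the data. The simulation therefore does not tell how well this fit finds changes of that size in the data.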
